A study of Drosophila melanogaster with 3 samples.

Results

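Mitochondrial ribosomal protein genes are nuclear genes whose products are imported into the mitochondrion and build its ribosome. They were taken as the protein-coding genes of the Ensembl BDGP6 annotation whose symbol starts with mRpL (large subunit) or mRpS (small subunit). The rule gave 73 of 13968 protein-coding genes, 47 of the large and 26 of the small subunit. Promoter summits, defined as peak summits within 500 bp of any annotated transcription start site (TSS) of the gene, were then read from the deposited peak lists.

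The peak lists came from chromatin immunoprecipitation and sequencing of whole Drosophila melanogaster embryos, mixed in sex and aged 0 to 16 h. All embryos carried a stable transgene that expresses CG18764 (a ZAD zinc-finger protein) fused at its C terminus to GFP, and chromatin was precipitated through the GFP tag. There were 3 biological replicates, all of 1 group, without control samples among the data used here, so no comparison between conditions was made. Whole embryos mix all cell types, and the lists do not tell in which cells a site was bound.

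The mitochondrial ribosome translates the few messages encoded by mitochondrial DNA, which specify subunits of the respiratory chain and ATP synthase. Part of its proteins descend from bacterial ribosomal proteins and others are specific to mitochondria. Many Drosophila housekeeping genes lie head to head with a neighbour on the opposite strand, so that a single short stretch of DNA serves as the promoter of both. A summit in such a stretch cannot be assigned to either gene by position.

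Each replicate list, and the pooled list, held 30000 peaks and background regions, here called relaxed lists. The optimal list held 3754 peaks and was the same as the top of the pooled relaxed list by deposited signal value. Ranks below are by that value within a list, with 1 the strongest, and lists that were ranked against each other had equal length. The number of reads behind the peaks is unknown.

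A promoter summit in the optimal list was present at 23 of the 73 genes (31.5%), where 17.9% of all protein-coding genes had such a summit. In the pooled relaxed list 53 genes (72.6%) had a promoter summit, beside 49.1% of all protein-coding genes. Each of the 3 replicate relaxed lists held a promoter summit at 36 genes (49.3%), beside 28.2%. For this count the replicate summits of a gene did not have to lie at the same position. The whole relaxed lists of replicates 1, 2 and 3 reached 41, 57 and 60 of the genes, where the shares of all protein-coding genes were 39.7%, 50.8% and 53.2%. Cut to their 3754 highest peaks, these lists reached 22, 24 and 22 of the genes, beside 17.0%, 17.6% and 18.0%. The members were thus above the background share in every list, and the spread between replicates at this depth of list was 2 genes. No test was made, because the genes are positions in merged lists and not replicates.

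The strongest sites of the family ranked among the highest of the genome. Summits at mRpS10, mRpL41, mRpS23 and mRpL23 lay within the first 100 ranks of the optimal list, which is 5.48% of the family beside 0.773% of protein-coding genes. The products of mRpS10 and mRpS23 belong to the small subunit and those of mRpL41 and mRpL23 to the large subunit.

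The summit of mRpS10 ranked 10 in the optimal list and 9, 11 and 22 in replicates 1, 2 and 3, a mean of 14 ± 7 (SD, n = 3). That of mRpL41 ranked 17 in the optimal list and 13, 13 and 26 in the replicates (17.3 ± 7.51). For mRpS23 the optimal rank was 29 and the replicate ranks were 35, 24 and 36 (31.7 ± 6.66). The order mRpS10, mRpL41, mRpS23 was the same in all 3 replicates. The summit of mRpL23 ranked 49, with 37, 81 and 63 in the replicates (60.3 ± 22.1), all below those of mRpS23.

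Next came mRpS2 at rank 200, with 309, 144 and 227 in the replicates (227 ± 82.5), and mRpL24 at 283, with 184, 440 and 289 (304 ± 129). Replicate 1 placed mRpL24 ahead and replicates 2 and 3 placed mRpS2 ahead, and both ranked behind mRpL23 in every replicate. The following genes were mRpL34 at rank 787 (661, 1026 and 1200, mean 962 ± 275) and mRpL32 at 807 (1047, 881 and 744, mean 891 ± 152), of which replicate 1 placed mRpL34 ahead and replicates 2 and 3 mRpL32. The yeast counterpart of mRpL32 is cut by a mitochondrial protease before it enters the ribosome. The 2 genes that complete the highest 10 were mRpL39 at 1158 (895, 1695 and 1172, mean 1254 ± 406) and mRpL37 at 1614 (1219, 1737 and 1907, mean 1621 ± 358), in this order in every replicate.

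**Figure D1:**
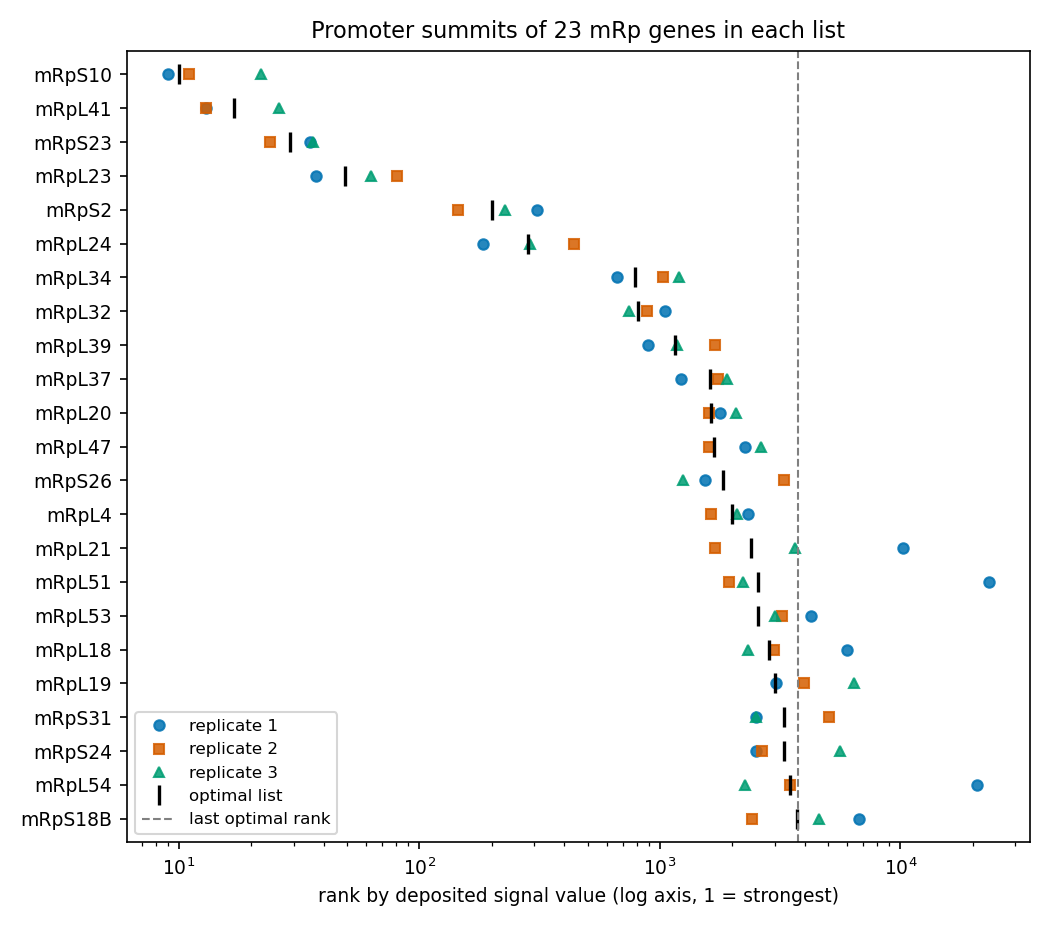
Rank of the highest promoter summit of each of the 23 genes with an optimal summit, on a log axis, in replicates 1 to 3 (circle, square, triangle) and in the optimal list (vertical tick). The dashed line is the last optimal rank, 3754. The replicates lie close together for the upper genes, while replicate 1 of mRpL21, mRpL51 and mRpL54 lies beyond rank 10000.

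The sequences below are shown to let the base composition at strong promoter summits of the family be read directly. They are the 6 highest members on 2L, 3L and 3R, so that mRpL41 and mRpL34, which rank among them, are not shown. Each is the central 100 bp around the optimal summit, read on the strand of the gene from the Release 6 reference assembly (dm6). Capitals mark runs of 8 or more bases that are only A or T. The windows are 3R:15229485-15229584 (plus strand) for mRpS10, 2L:13835409-13835508 (minus) for mRpS23, 3L:2373556-2373655 (minus) for mRpL23, 2L:4850498-4850597 (minus) for mRpS2, 2L:4945479-4945578 (minus) for mRpL24 and 3R:31252727-31252826 (plus) for mRpL32.
mRpS10: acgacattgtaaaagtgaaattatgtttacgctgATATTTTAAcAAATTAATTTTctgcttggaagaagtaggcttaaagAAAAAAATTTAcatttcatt
mRpS23: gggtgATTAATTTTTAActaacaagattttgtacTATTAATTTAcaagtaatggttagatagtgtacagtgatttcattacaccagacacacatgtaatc
mRpL23: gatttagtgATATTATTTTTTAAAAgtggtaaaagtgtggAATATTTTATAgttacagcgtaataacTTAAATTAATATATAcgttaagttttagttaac
mRpS2: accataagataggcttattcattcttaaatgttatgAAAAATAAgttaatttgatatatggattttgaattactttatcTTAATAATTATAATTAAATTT
mRpL24: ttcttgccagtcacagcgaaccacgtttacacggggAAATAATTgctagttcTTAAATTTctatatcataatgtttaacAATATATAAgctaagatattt
mRpL32: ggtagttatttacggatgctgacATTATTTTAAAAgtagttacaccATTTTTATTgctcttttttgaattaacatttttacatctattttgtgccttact

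All 6 windows held at least 2 such runs, the longest of 21 bases at mRpS2. GC content at the summits not shown was 23% for mRpL41 and 30% for mRpL34. Over the 23 member summits GC content was 29.3% ± 10.3 (SD across summits) in the central 100 bp and 46.5% ± 7.09 in windows of the same length centred 300 bp to either side, the centre being the lower in 21 of the 23. The exceptions were mRpL47 (42.0% against 41.5%) and mRpL53 (53.0% against 49.5%). All 1991 promoter summits of the optimal list averaged 34.2% ± 9.54 in the central 100 bp, and the 100 bp upstream of 19276 protein-coding TSS averaged 42.1% ± 9.82. No flanking value is available for all promoter summits, so the lower centre cannot be called particular to the family. The range among members ran from 17.0% at mRpS2 and mRpL19 to 58.0% at mRpL18.

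An uninterrupted run of 10 or more A or T bases was present in 18 of the 23 member windows (78.3%), in 54.8% of all promoter summits and in 31.3% of the upstream windows. The longest run had a median of 13 bases over members, 10 over all promoter summits and 8 upstream of TSS. This measure was chosen after the sequences were seen and is a description.

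Of 11 consensus sequences searched on both strands in the central 100 bp, TATAAA was in the most member windows, 9 of 23 (39.1%, beside 22.1% of all promoter summits and 18.1% of upstream windows). It was at mRpL19, mRpS24, mRpL37, mRpS31, mRpL23, mRpL54, mRpL51, mRpL4 and mRpS18B. Next, only summits within 100 bp of a summit among the 3754 highest peaks of both other replicates were kept. TATAAA was in 4 of 18 without replicate 1 (22.2%). Without replicate 2 and without replicate 3 it was in 3 of 14 (21.4% each). All promoter summits kept in the same way held it at 22.7%, 22.6% and 22.9%, so the member share was no longer above that background. The letters are all A or T, and the part that base composition plays in these matches was not tested.

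CGATA, the core of the promoter element DRE, was in 3 windows (13.0%, beside 23.9% and 25.8%), at mRpL47, mRpL54 and mRpL53, and overlaps the longer DRE. Its count was 1 of 14 without replicate 2 and 1 of 14 without replicate 3 (7.14% each, beside 21.8% and 22.3%). In the central 200 bp it was in 10 windows (43.5%, beside 40.1% of all promoter summits), so the lower share held only for the shorter window. TCAGT, the core of the Initiator, was in 3 (13.0%, beside 15.4% and 20.6%). The E-box CAGCTG was in 1 window (4.35%, beside 3.82% and 7.52%), at mRpL54. The TCT-like CTCTTT was in 1 (beside 7.03% and 7.17%), at mRpL32, and a run of 8 A bases in 1 (beside 6.23% and 4.91%), at mRpL41. The DRE sequence TATCGATA, the M1BP motif GGTCACACT, the GAGA repeat GAGAG, GCGCATGC (resembling the site of human NRF-1, a regulator of mitochondrial genes) and the Ets core CCGGAA were in 0 windows. Their shares of all promoter summits were 3.92%, 1.16%, 7.63%, 0.201% and 2.46%, and their shares of upstream windows 5.13%, 1.90%, 15.3%, 0.482% and 2.41%. A 0 says only that these letters are not in these 23 windows.

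Member summits lay upstream of the gene. In 22 of the 23 the summit was upstream of the nearest TSS of the gene, with a median position of −145 bp (quartiles −186.5 and −111.5 bp). Over all 2502 protein-coding genes with an optimal promoter summit the median was −131 bp and 89.7% were upstream. Medians of the replicate summits at the same 23 genes were −114, −137 and −131 bp, a mean of −127.3 ± 11.9 (SD, n = 3). The exception was mRpL23, whose summit lay 72 bp downstream of its nearest TSS, in the 5′ UTR. Replicate summits of a gene spanned a median of 52 bp and lay within 100 bp of each other at 19 of the 23 genes.

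Most summits fell between genes. The annotation placed 19 of the 23 outside any gene. Besides mRpL23, the summit of mRpL51 was in the 5′ UTR of Uba4, that of mRpL18 in the 5′ UTR of Taz and that of mRpL53 in an intron of AGO1. The share outside genes is not available for all promoter summits, so the count describes the members only.

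Nearly every bound member had a divergent neighbour, meaning a TSS on the opposite strand upstream within 1000 bp. This held for 22 of the 23 genes with an optimal summit (95.7%), for 36 of the 50 without (72%) and for 39.6% of all protein-coding genes. Among all protein-coding genes with an optimal summit it held for 68.9%. Read the other way, 22 of the 58 members with a divergent neighbour had an optimal summit (37.9%), where the share was 31.2% of all genes with such a neighbour. Of the 15 members without one, 1 had a summit (6.67%, mRpL19), where the share was 9.21%. Members therefore had divergent neighbours more often than protein-coding genes as a whole (79.5% against 39.6%). Within each class, over all arms together, their share with a summit was closer to the background than over the whole family. The members with a divergent neighbour differed by arm, with an optimal summit at 22 of 49 on 2L, 2R, 3L and 3R (44.9%). On X it was 0 of 9, beside 22.5% of X-linked protein-coding genes with such a neighbour. The matching share of all genes on 2L, 2R, 3L and 3R was not computed.

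The distance between the paired TSS had a median of 282 bp over the 22 genes, close to the 284 bp over all protein-coding genes with an optimal summit. Of the 11 members with a gap of 201 to 300 bp, 8 had an optimal summit (72.7%, beside 45.7% of all protein-coding genes with that gap). Of the 18 with a gap of up to 100 bp, 4 did (22.2%, beside 26.8%), and of the 20 with a gap of 301 to 500 bp, 7 did (35.0%, beside 38.4%). The remaining bins held few members, with 1 of 4 at 101 to 200 bp (25%, beside 25.7%) and 2 of 5 at 501 to 1000 bp (40.0%, beside 18.6%). The bins were chosen after the values were seen.

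In 19 of the 22 pairs the summit lay between the paired TSS, and in 3 (mRpL23, mRpL51 and mRpL18) outside that stretch. The nearest TSS was that of the member at 11 of the 23 summits and that of a neighbour at 12. Between 17 and 186 bp separated a summit from its nearest TSS. The same counts are not available for all genes with an optimal summit, so these cannot be called particular to the family.

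**Figure D2:**
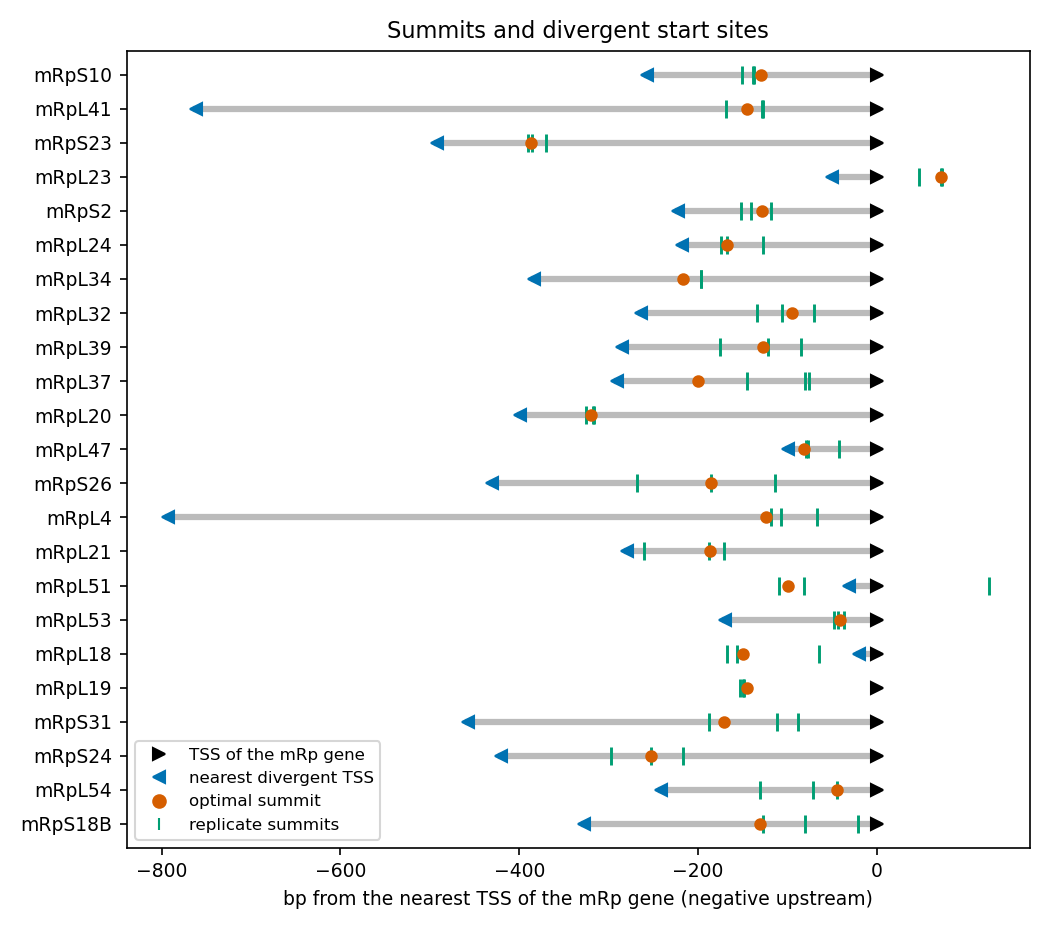
Position of each optimal summit (orange circle) and of the replicate summits (green ticks), in bp from the nearest TSS of the gene (black arrowhead, at 0), for the 23 genes in the order of rank. The blue arrowhead is the nearest divergent TSS within 1000 bp and the grey bar the stretch between, and mRpL19 has none. In 19 genes the summit lies on the grey bar.

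The summit at 3R:15229535 lay 130 bp upstream of mRpS10 (FBgn0038307, 3R:15229665-15230516) and 127 bp upstream of Art3, which encodes an arginine methyltransferase, nearly at the midpoint of a 257 bp gap. At 2L:13835459 the summit of mRpS23 (FBgn0260407, 2L:13834250-13835072) lay 387 bp upstream of that gene and 105 bp upstream of CenG1A, a regulator of Arf GTPases. The mRpL23 summit (3L:2373606, gene FBgn0035335 at 3L:2372844-2373704) lay 122 bp upstream of CG9004.

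For mRpS2 (FBgn0031639, summit 2L:4850548) the neighbour was Mon1, part of the exchange factor that activates Rab7, whose TSS was 93 bp away and nearer than that of mRpS2 at 129 bp. The mRpL24 summit (FBgn0031651, 2L:4945529) was 50 bp from the TSS of betaggt-I, a subunit of an enzyme that attaches geranylgeranyl lipids to proteins, and 168 bp from that of mRpL24. At mRpL32 (FBgn0039835, 3R:31252777) the neighbour qless, an enzyme of coenzyme Q synthesis, was 169 bp away and mRpL32 itself 95 bp.

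The summit of mRpL41 (FBgn0034001, 2R:15217762) was the strongest with no other protein-coding TSS within 500 bp. It lay 145 bp upstream of mRpL41, and the divergent gene CG8079 started 762 bp from the TSS of mRpL41. A noncoding gene on the same strand, lncRNA:CR44463, had a TSS 433 bp from the summit. The mRpL34 summit (FBgn0083983, 2R:16098731) was 217 bp from that gene and 167 bp from Dg, which encodes dystroglycan. Those of mRpL39 (FBgn0036462, 3L:14999793) and mRpL37 (FBgn0261380, 3R:10784292) lay 127 and 200 bp upstream of the members, and that of mRpL39 was 158 bp from Prosbeta2, a proteasome subunit gene. For mRpL37 the replicate summits of highest rank lay 76 to 145 bp upstream, away from the pooled summit. With the replicate summits nearest the pooled one, the mean rank of mRpL37 was 4154 in place of 1621.

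A further 13 members had optimal summits at lower ranks. These were mRpL20 (1625), mRpL47 (1670), mRpS26 (1835), mRpL4 (1993), mRpL21 (2392), mRpL51 (2548), mRpL53 (2558), mRpL18 (2838), mRpL19 (2995), mRpS31 (3276), mRpS24 (3288), mRpL54 (3466) and mRpS18B (3724). Neighbours with a TSS within 500 bp of these summits included Icmt (at mRpL20), a methyltransferase of prenylated proteins, and Kdm3 with CG8176 (at mRpL47), Kdm3 being a histone demethylase. At mRpL21 the neighbour was rept, an ATPase of chromatin complexes. At mRpL51 it was Uba4, at mRpS24 Apc2, a relative of the Wnt pathway gene APC, and at mRpS18B it was Kua. The summit of mRpL53 was also in reach of AGO1, the Argonaute of the microRNA pathway, and of CG33155, whose TSS coincides with that of mRpL53. At mRpL18 it was Taz, the tafazzin gene that remodels the mitochondrial lipid cardiolipin. The summits at mRpS26, mRpS31 and mRpL54 were shared with CG13698, hzg and CG15653. No other gene had a TSS in reach at mRpL4 and mRpL19.

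Replicates diverged most at the lower ranks. All 3 replicates placed the summit among their own 3754 highest peaks at 14 of the 23 genes. The same count is not available over all protein-coding genes. With a match within 100 bp required in all 3, 13 of the 23 members and 1535 of 2502 protein-coding genes kept an optimal summit. The first count therefore cannot be called particular to the family. The gene mRpL51 ranked 23269, 1940 and 2219 in replicates 1, 2 and 3, and its replicate 1 summit lay 125 bp downstream of the TSS, where replicates 2 and 3 were 110 and 82 bp upstream. Without replicate 1 its mean rank was 2080, against 9143 with it. At mRpL54 the ranks were 20713, 3480 and 2257, and at mRpL21 they were 10198, 1700 and 3649. Replicate 1 was low at these 3 genes, whereas it gave the best rank of the 3 replicates at mRpL23 (37), mRpL24 (184) and mRpL34 (661), among others. Over the 23 genes the weakest rank came from replicate 1 at 9, from replicate 2 at 5 and from replicate 3 at 9.

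The boundary of the optimal list ran through the family. Just inside it was mRpS18B at 3724, and just outside were mRpS11 at pooled rank 3762, mRpS22 at 3809 and mRpL42 at 3863. Replicate ranks were 6700, 2408 and 4598 for mRpS18B and 2716, 4076 and 4129 for mRpS22, so that these genes on either side of the boundary were not separated by the replicates. For mRpS11, replicates 2 and 3 gave 2812 and 4880 and replicate 1 gave no promoter summit. The ranks of mRpL42 were 6727, 1845 and 7175.

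The next in order were mRpS21 at 4138 (4774, 4184 and 4713) and mRpS17 at 4222 (5198 in replicate 1, 4605 in replicate 3 and none in replicate 2). In all, 30 genes had a promoter summit in the pooled relaxed list and none in the optimal list, 25 of them with the summit upstream and 13 with a summit in every replicate. Of all 13968 protein-coding genes, 6860 had a pooled relaxed summit and 2502 of these an optimal one. The upstream and replicate counts are not available over those genes, so they describe the members only. Taken down to rank 5000 the pooled list reached 32 genes (43.8%, beside 22.0% of protein-coding genes), a gain of 9 genes over the optimal list.

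**Figure D3:**
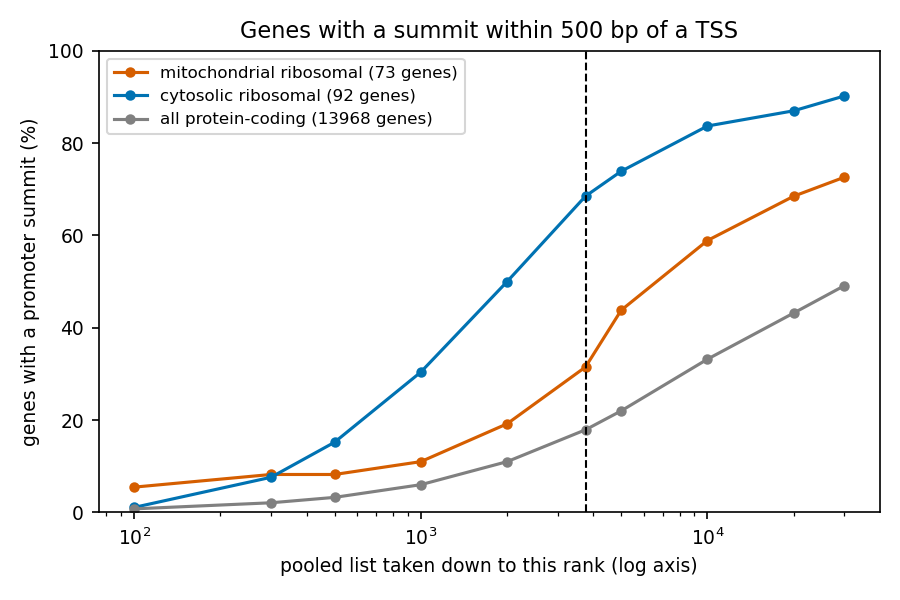
Percentage of genes with a promoter summit when the pooled list is taken from rank 1 down to the rank on the log axis, for 73 mitochondrial ribosomal, 92 cytosolic ribosomal and 13968 protein-coding genes. The dashed line marks rank 3754, the end of the optimal list. The mitochondrial ribosomal genes lie above all protein-coding genes at every rank plotted and below the cytosolic ribosomal genes from rank 500 onward.

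Another 13 members had a promoter summit in at least 1 replicate list but not in the pooled list. The highest of these were mRpS25 (2491 in replicate 1 and 6637 in replicate 3), mRpS30 (3295 and 10338 in the same replicates), mRpL33 (4334 in replicate 3 and 14854 in replicate 2), mRpL43 (5394 in replicate 3) and mRpL28 (6087 in replicate 2 and 10348 in replicate 3). For mRpS25, mRpL33 and mRpS9 a pooled summit lay just beyond the limit, 510, 538 and 545 bp from a TSS. The other genes in this group were mRpL40, mRpS35, mRpS14, mRpL22, mRpL16, mRpL30 and mRpL3. In none of the dm6 lists was there a promoter summit at mRpS33, mRpL45, mRpL46, mRpS34, mRpL52, mRpL38 and mRpL14. These were 7 of the 73 members, beside 4404 of 13968 protein-coding genes. Any list held a promoter summit for 66 members and the pooled list for 53, beside 9564 and 6860 protein-coding genes.

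Members on the X chromosome had a lower share than those on the other arms. Of the 11 X-linked members 0 had an optimal promoter summit, where 15.3% of all X-linked protein-coding genes did. In the pooled relaxed list 1 of the 11 had a summit (9.09%, mRpL49 at rank 19111), where the share of X-linked genes was 50.0%. On 2L, 2R, 3L and 3R together 23 of 62 members had an optimal summit (37.1%, beside 18.5% of protein-coding genes on these arms) and 52 had a relaxed one (83.9%, beside 48.8%). By arm the optimal count was 6 of 12 on 2L (50.0%), 5 of 12 on 2R (41.7%), 6 of 17 on 3L (35.3%) and 6 of 21 on 3R (28.6%). The shares of all protein-coding genes on these arms were 17.3%, 16.4%, 19.2% and 20.5%.

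The low X share was not shared by the cytosolic ribosomal protein genes, of which 13 of 15 on X had an optimal summit and 15 of 15 a relaxed one. Of 12 X-linked oxidative phosphorylation subunit genes, 4 had an optimal summit. Divergent neighbours were present at 9 of the 11 X-linked members, of which 0 had a pooled relaxed summit, while 66.4% of X-linked protein-coding genes with a divergent neighbour had one. In the replicate lists 9 of the 11 X-linked members had some promoter summit, at ranks from 2491 (mRpS25, replicate 1) to 23848 (mRpL30, replicate 3). Of X-linked protein-coding genes, 1473 of 2196 had one in any replicate or pooled list. By this count X-linked members were not below X-linked genes as a whole. A summit in all 3 replicates was present at 0 of the 11, beside 29.4% of X-linked protein-coding genes. With the limit widened to 1000 bp, a choice made after seeing the data, the optimal count was again 0 (beside 17.9% of X-linked protein-coding genes) and the relaxed count was 3 (27.3%, beside 57.2%). At 2000 bp they were 1 (9.09%, beside 22.0%) and 5 (45.5%, beside 66.2%). The difference between X and the other arms was noticed in the data and was not tested.

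**Figure D4:**
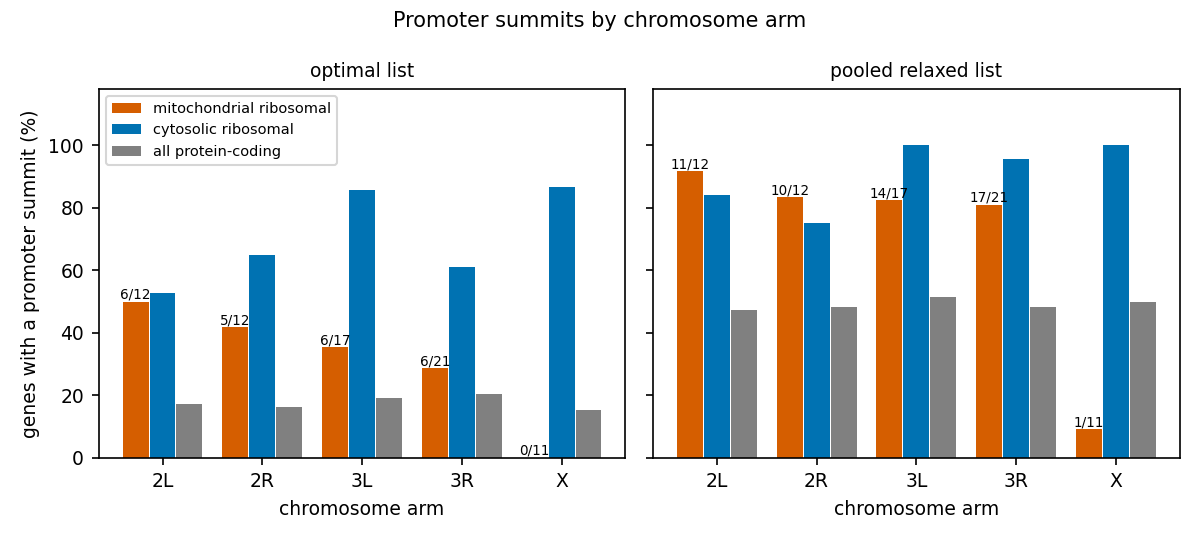
Percentage of mitochondrial ribosomal, cytosolic ribosomal and all protein-coding genes with a promoter summit, by chromosome arm, in the optimal list (left) and the pooled relaxed list (right). Numbers over the bars give members with a summit out of members on the arm. On X the counts are 0 of 11 and 1 of 11, while 13 of 15 and 15 of 15 cytosolic ribosomal genes had a summit.

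Both subunits of the mitochondrial ribosome were represented. An optimal summit was present at 16 of 47 large subunit genes (34.0%) and 7 of 26 small subunit genes (26.9%), and a pooled relaxed one at 34 (72.3%) and 19 (73.1%). Genes numbered like a bacterial ribosomal protein (up to 36 in the large and 21 in the small subunit) had an optimal summit at 12 of 42 (28.6%), and those with higher numbers, mostly proteins specific to mitochondria, at 11 of 31 (35.5%). In the pooled relaxed list the order was the other way, with 33 of the 42 (78.6%) and 20 of the 31 (64.5%), as it was in all 3 replicate lists, with 52.4% and 45.2%. The numbers are only a guide, since in human the products of MRPL47 and MRPS24 are relatives of bacterial proteins.

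Other genes of mitochondrial gene expression are given for context, in lists too short to read a difference from. Of 9 annotated mitochondrial translation factor genes 0 had an optimal promoter summit, beside 17.9% of all protein-coding genes, and 7 a pooled relaxed one (77.8%, beside 49.1%), the highest being the elongation factor genes mEFTu1 (6450) and mEFTs (6654). Mitochondrial ribosomal protein genes with other symbols, tko and bonsai, were looked up as well. The small subunit gene tko had a relaxed summit at rank 5559, and bonsai had none in any list. Of 11 genes of mitochondrial transcription and DNA maintenance 2 had an optimal summit (18.2%), a share near the background. These were mtSSB, the single-strand DNA-binding protein of mitochondria, at rank 420 (441, 492 and 324 in the replicates) and mTerf5 at rank 1990 (1809, 2571 and 2230). The genes named from these context lists were chosen after their values were seen.

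Set beside related families, the mitochondrial ribosomal genes lay between the cytosolic ribosomal genes, at 63 of 92 (68.5%), and the oxidative phosphorylation subunit genes, at 18 of 84 (21.4%, beside the 17.9% of all protein-coding genes). These families were gathered by symbol and the differences between them were not tested. The order of the families depended on the rank. Within the first 100 pooled ranks 4 mitochondrial ribosomal genes (5.48%) and 1 cytosolic one (1.09%) had a summit, and within the first 1000 the counts were 8 (11.0%) and 28 (30.4%).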

How the data were processed

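The authors deposited peak lists on dm6 in the narrowPeak layout, per the deposited file listing. These are 3 replicate lists and a pooled list of peaks and background that fed the irreproducible discovery rate (IDR) procedure, and an optimal list thresholded by it. All were called against a control dataset. For the aligner, the peak caller and the settings, names were not given in the sources used here. The deposited signal value is a score with no stated scale and served only to rank peaks. Summit positions come from the offset that the authors deposited for each peak, in bp. Depth is unknown, so values carry no counting intervals. The dm3 lists were not used here.

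Gene models were Ensembl release 115 (18277 genes and 23694 TSS positions on 2L, 2R, 3L, 3R, 4, X and Y). Sequence came from the same assembly release in RefSeq, and every peak lay inside its arm. Coordinates are 1-based. A gene's rank is that of its highest summit within 500 bp of any TSS. The symbol lists held 27 context genes, of which 22 were in the annotation. Of members, the 10 highest with an optimal summit and the 5 highest with only a relaxed one are given in full. All others are included in the counts, but most of those with only a pooled relaxed summit are not named. The members and lists were chosen with earlier results of these data known. The software was Python 3.11.15, pandas 2.3.3, numpy 2.4.6, matplotlib 3.10.9 and scipy 1.17.1, and the matching of summits to TSS was tested on simulated data. Alternatives changed the distance limit, the TSS used, the peak list and the replicates kept. The neighbour of 1 of the 10 highest members is not reported here.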

Additional observations from a re-analysis of the deposited data

How the results depend on the processing

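The optimal count of 23 was 20 within 250 bp, 23 within 1000 bp, 23 with the 5′-most TSS and 19 where the peak had to cover a TSS. Keeping the upper 1877 optimal peaks gave 13. Matches were then sought within 100 bp among the 3754 highest peaks of each replicate, not in the whole lists. Requiring one in all 3 replicates gave 13, and requiring one in both other replicates gave 14 to 18. The count was 18 without replicate 1, 14 without replicate 2 and 14 without replicate 3. These sets also held fewer peaks (1877 and 2132 of 3754, then 2624, 2358 and 2438), and 10.4%, 11.0%, 13.1%, 12.0% and 12.4% of protein-coding genes, beside 17.8%, 17.8%, 24.7%, 19.2% and 19.2% of members. The genes lost in all 3 replicate settings were mRpL19, mRpL37 and mRpS18B. In the whole replicate lists, all 23 summits had a match within 100 bp in every replicate except mRpL51 and mRpS18B, which had one in 2.

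The pooled relaxed count of 53 was 45 to 56 over its alternatives. The count in all replicate lists, 36, was 14 with lists of 3754 peaks and 38 to 51 without a replicate. That count can only stay or rise when a replicate is dropped. Shares of all protein-coding genes were not computed at these settings, nor at those of the pooled relaxed count. The divergent share of 95.7% was 87.0% within 500 bp and 100% without any 1 replicate. Each of these replicate sets lacked mRpL19, the only member with an optimal summit and no divergent neighbour. The median distance of −145 bp was −129.5 to −137.5 bp without a replicate. X-linked counts were 1 (optimal, 2000 bp), 3 (relaxed, 1000 bp) and 5 (relaxed, 2000 bp), against 0 and 1. For changes with no stated reason the cause was not tested. Of the mean ranks, 22 of 23 moved by less than 1 SD when replicate summits were taken within 100 bp of the pooled one. For mRpL51 and mRpS18B that mean rests on 2 replicates. The mean of mRpL51 went from 9143 to 2080, and its SD of 12235 includes the replicate that was left out. Staying within 1 SD therefore says little for this gene. In 200 bp windows CGATA went from 3 to 10 (43.5%, beside 40.1% of all promoter summits), CAGCTG from 1 to 5 (21.7%, beside 10.1%), TCAGT from 3 to 6 (26.1%, beside 31.1%) and GAGAG from 0 to 3 (13.0%, beside 19.2%). There TATAAA went from 9 to 12 (52.2%, beside 38.2%) and the A run from 1 to 2 (8.7%, beside 13.8%). DRE and the Ets core each went from 0 to 1 (4.35%, beside 7.84% for DRE and 4.92% for the Ets core). Without replicate 2 or replicate 3 CAGCTG was in 0 windows. The X-linked limits were chosen after seeing the data. No paired analysis was possible because the samples form 1 group. Outliers were not sought, as the group has 3 samples.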
